A study of Homo sapiens with 8 samples.

Results

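The fibronectin, elastic and matricellular matrix genes are 10 genes of the extracellular matrix: FN1, TNC, THBS1, THBS2, SPARC, POSTN, ELN, FBN1, FBN2 and LOX. They were chosen by symbol, and all 10 were found among the 28265 genes of the count tables. The RNA came from IMR90, primary human fetal lung fibroblasts, at low passage and wild type in all conditions. The 4 conditions, with 2 libraries each, were the control, labelled young, treatment with ICM for 3 days, treatment with ICM for 6 days, and a treatment labelled MetaICM, whose nature and duration the labels do not give. ICM (inflachromene) is a small molecule that binds the chromatin proteins HMGB1 and HMGB2. The libraries are named factory RNA-seq, a method for nascent RNA, whereas their labels describe poly(A)-selected RNA from whole-cell lysates, so a level below is that of the counted RNA, without a split into nascent and mature transcripts.

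Fibronectin is a large secreted glycoprotein that cells assemble into fibrils through integrins, and these fibrils serve as a scaffold for other matrix proteins. Elastic fibres have a core of crosslinked elastin laid down on microfibrils of fibrillin, and the crosslinks are started by lysyl oxidases, which oxidize lysines of elastin and collagen. Matricellular proteins such as tenascins, thrombospondins, SPARC and periostin sit in the matrix without being its main structural part, and modulate how cells adhere to it, migrate and respond to growth factors. Fibroblasts are the main makers of all 3 classes in the lung interstitium.

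The 3 promoters printed here include those of FN1, the most counted gene, and POSTN, the gene with the largest fall in MetaICM. The third is that of THBS2, which like POSTN held a match to TATAAA. Each is the stretch of 250 bases before the gene's start in RefSeq on the GRCh38.p14 build, read 5′ to 3′ on the gene's strand, and sequences were found for 9 of the 10 genes. Capitals mark a match to the cyclic AMP response element (TGACGTCA), to an AP-1 element (TGANTCA) or to a TATA box (TATAAA), searched on both strands.
FN1, chr2:215436069-215436318, minus strand: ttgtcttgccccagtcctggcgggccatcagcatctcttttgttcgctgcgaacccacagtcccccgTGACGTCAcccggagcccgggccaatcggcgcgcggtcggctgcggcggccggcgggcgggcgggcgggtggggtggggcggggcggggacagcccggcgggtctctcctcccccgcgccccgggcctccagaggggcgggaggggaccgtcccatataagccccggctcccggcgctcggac
POSTN, chr13:37598769-37599018, minus strand: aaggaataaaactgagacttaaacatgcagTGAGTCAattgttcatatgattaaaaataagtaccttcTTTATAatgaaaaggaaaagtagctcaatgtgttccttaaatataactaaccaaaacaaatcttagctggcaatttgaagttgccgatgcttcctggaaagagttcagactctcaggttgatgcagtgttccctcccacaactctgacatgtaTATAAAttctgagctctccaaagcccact
THBS2, chr6:169253847-169254096, minus strand: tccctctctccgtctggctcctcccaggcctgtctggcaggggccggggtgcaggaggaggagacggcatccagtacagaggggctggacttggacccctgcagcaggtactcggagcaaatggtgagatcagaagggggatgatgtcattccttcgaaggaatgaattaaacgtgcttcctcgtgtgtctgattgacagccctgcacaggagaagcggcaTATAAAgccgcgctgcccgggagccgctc

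The FN1 promoter held the cyclic AMP response element, with its first base at −183 from the start, a motif that occurs in 1.75% of all 27305 promoters of this length. None of the other 8 promoters held it. A match to TATAAA began at −29 in both POSTN and THBS2, and POSTN had another at −182 on the opposite strand. Of all promoters, 11.2% held at least 1 match. Related strings, such as tatataag in TNC, were not searched, so a promoter without a match may still hold a TATA box. The AP-1 element was found in POSTN alone, at −220, and 6.57% of all promoters held one. The GC box (GGGCGG) was matched in 5 of the 9 promoters (FN1, TNC, THBS1, FBN2 and LOX) and in 42.2% of all promoters, and some of the FN1 matches overlap each other. Other motifs searched were the TEAD element (GGAATG) and the CCAAT box, each matched in 4 of the 9, against 12.0% and 33.0% of all promoters. The CArG box was matched in none of the 9 and in 1.15% of all promoters. The base composition of the 3 promoters differed, with 76.4% G and C and 32 CG pairs for FN1, 60.0% and 12 for THBS2, and 36.4% and 1 for POSTN, beside medians of 57.6% and 10 over all promoters. A match describes the letters only, and no factor binding was measured.

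The 8 libraries held 12095123 to 23166405 counted read pairs. Levels, falls and rises are relative to the other RNA of a library, and are not amounts per cell. Replicate libraries correlated with r of 0.984 to 0.993 on the log2 CPM scale across genes (which are not independent replicates), and each library was most like the other one of its condition. The control pair differed most, by a median of 0.24 on the log2 scale, against 0.12 for the MetaICM pair. The labels do not say that the 2 libraries of a condition came from separate cultures, so p-values measure the spread between libraries, which may be technical. Fibroblast markers were present throughout (9 of 10 at 1 CPM or more in both libraries of every condition, with S100A4 the exception), whereas the summed level of 6 epithelial markers was at most 8.76 CPM, that of 6 endothelial markers at most 6.82 CPM and that of 6 blood markers at most 3.17 CPM, with CD3E at 0 in all libraries. The summed level of 6 cartilage and bone markers was 12.2 to 38.5 CPM. The summed level of 8 smooth muscle markers was 1162 to 1376 CPM in control, 337 to 340 CPM after 3 days, 228 to 257 CPM after 6 days and 1049 to 1143 CPM in MetaICM, and none of the 8 was at 0 in both libraries of a condition. That of the 10 fibroblast markers was 23126 to 23293, 12900 to 14278, 10953 to 11323 and 20312 to 21213 CPM in the same order. Both sums thus fell at 3 and 6 days, as most of the matrix genes described here did. In MetaICM they lay nearer to control, whereas FN1, TNC, THBS2, POSTN and ELN stayed lower there. Of the 8 smooth muscle markers, 3 were lower and 1 higher in MetaICM than in control by the cutoffs given below. Over all genes tested, 8.99% were lower and 7.41% higher. The part of these sums in the results was not tested. In bulk libraries, fewer cells of a type and less RNA per cell cannot be told apart.

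Most of the matrix genes were lower with ICM than in control. A gene was taken as changed with an adjusted p under 0.05 in edgeR's quasi-likelihood test, adjusted over all genes tested, and an absolute log2FC over 0.6. After 3 days, 9 of the 10 genes were lower than in control and none was higher, where 13.2% of the 15692 genes tested were lower and 8.85% higher. These shares are 2067 and 1389 genes, and with library totals in place of TMM they became 1767 and 1785 genes, with 9 of the 10 matrix genes lower. The gene that did not pass was THBS1. ELN is among the 9, but it entered the test through its control counts alone, here and after 6 days. The median log2FC of the 10 genes was −1.24, beside 0.01 over all genes tested. After 6 days, 8 of the 10 were lower and none higher, against backgrounds of 17.2% and 13.3%, with a median log2FC of −1.53, and the 2 genes that did not pass were SPARC and LOX. In MetaICM, 5 of 10 were lower than in control (FN1, TNC, THBS2, POSTN and ELN) and none was higher, against backgrounds of 8.99% lower and 7.41% higher, with a median log2FC of −0.66. These 3 comparisons share the 2 control libraries.

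**Figure D1:**
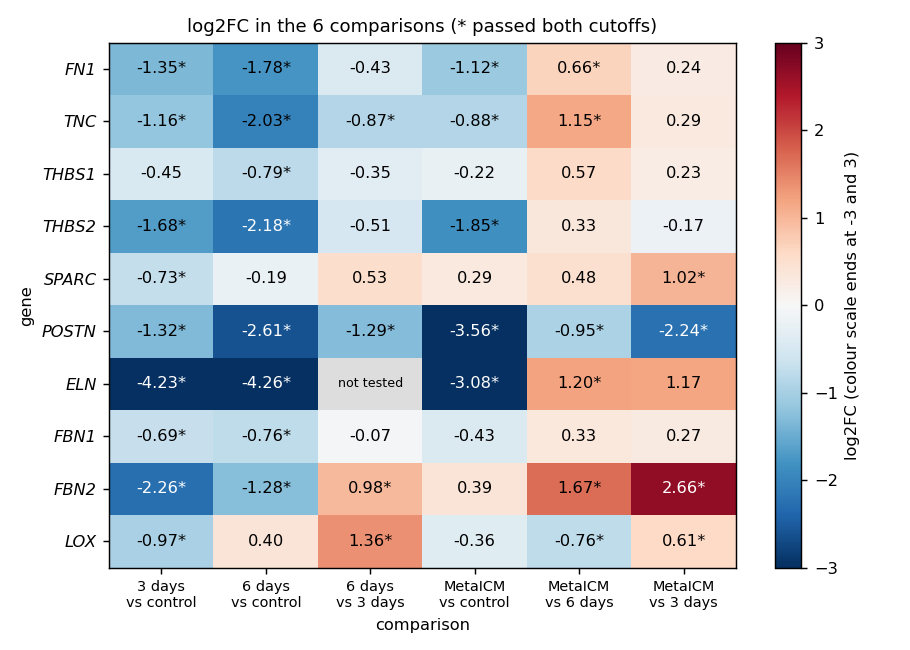
log2FC of each of the 10 genes (rows) in the 6 comparisons (columns), blue for lower and red for higher in the condition named first, with an asterisk where the gene passed both cutoffs (adjusted p under 0.05 in edgeR and absolute log2FC over 0.6). The first 2 columns hold 9 and 8 falls, while the last 2 hold rises of FBN2 and falls of POSTN, and ELN was not tested between 6 and 3 days.

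The comparisons among the treated conditions went both ways. Between 3 and 6 days of ICM, FBN2 and LOX rose and TNC and POSTN fell further, which is 2 higher and 2 lower of 9 genes tested, against backgrounds of 3.53% higher and 4.54% lower. MetaICM lay above 6 days of ICM for FN1, TNC, ELN and FBN2 and below it for POSTN and LOX. That is 4 of 10 higher and 2 lower, against backgrounds of 15.7% and 12.0%. The call of ELN rested on few counted pairs and did not hold with DESeq2. Compared with 3 days of ICM, MetaICM had 3 higher genes (SPARC, FBN2 and LOX) and 1 lower gene (POSTN), against backgrounds of 13.1% and 10.3%. Of the 10 genes, POSTN alone was lower in all 6 comparisons as they are coded here.

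**Figure D2:**
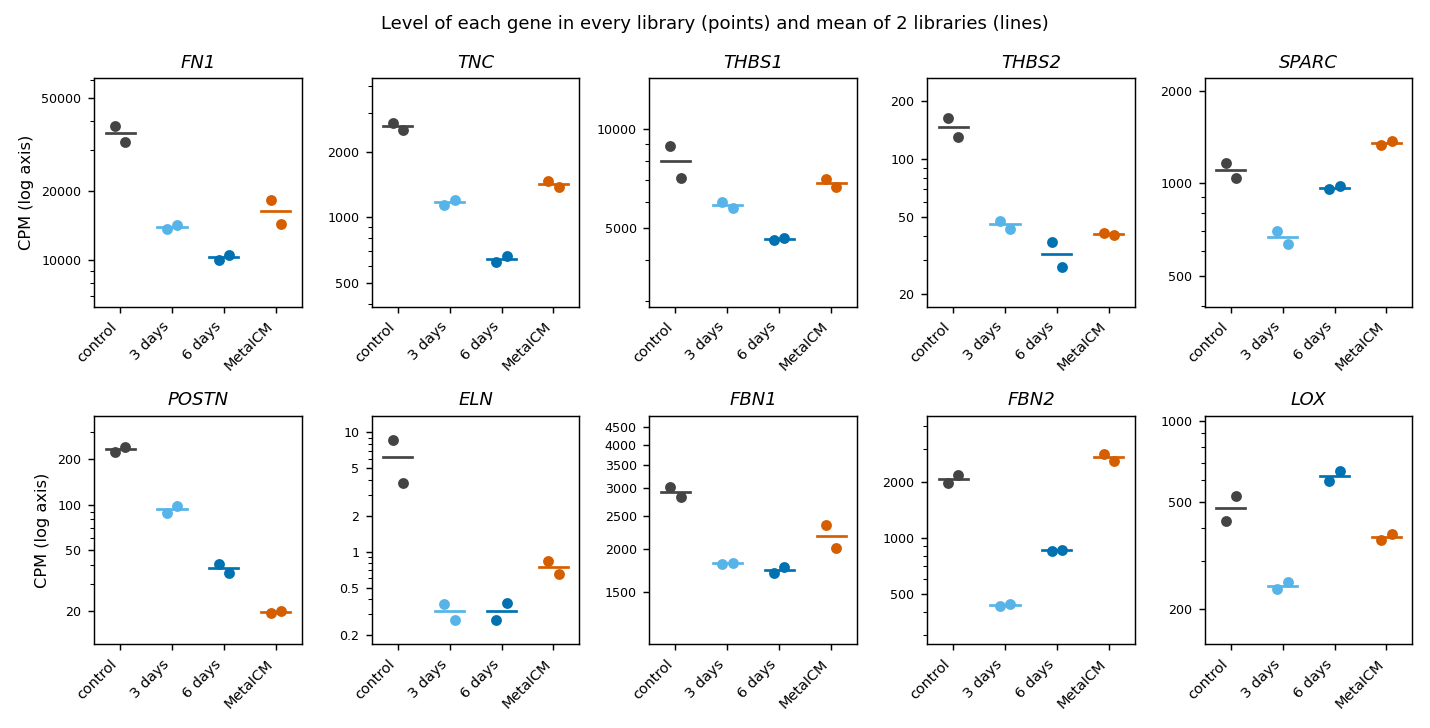
Level of each gene in CPM (log axis, a different range in each panel) in every library (points) with the mean of the 2 libraries of a condition (lines). The 2 libraries of a condition differ at most 1.39-fold, except for ELN in control (2.30-fold), and only SPARC, FBN2 and LOX had their highest level outside control.

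FN1 (chr2:216225163-216300793 on hg19, minus strand, 46 merged exons), the gene of fibronectin, was the most counted gene in both control libraries. It took 3.64% and 3.24% of the counted pairs in control, 1.40% and 1.46% after 3 days, 1.02% and 1.05% after 6 days, and 1.81% and 1.43% in MetaICM, and it ranked between 1 and 5 among all genes in every library. Its level was 38097 and 32463 CPM in control, 13616 and 14152 CPM after 3 days, 10068 and 10560 CPM after 6 days, and 18248 and 14346 CPM in MetaICM. No treated library reached a control library. FN1 fell 2.55-fold after 3 days (log2FC −1.35 ± 0.15, SE, edgeR adjusted p = 3.8e-05) and 3.43-fold after 6 days (log2FC −1.78 ± 0.14, adjusted p = 4.5e-06). The further difference between 6 and 3 days, −0.43 ± 0.09 on the log2 scale, had an adjusted p of 0.0018 in edgeR but stayed under the minimum change of 0.6. With all 8 libraries in one fit, its adjusted p in edgeR was 0.045. In MetaICM FN1 fell 2.17-fold (log2FC −1.12 ± 0.20, edgeR adjusted p = 0.0035). It was 1.58-fold higher there than after 6 days of ICM (log2FC 0.66 ± 0.11), but without replicate 1 of MetaICM the log2FC was 0.48 and no longer passed the minimum change. MetaICM and 3 days of ICM, next to each other in the order of levels, were not separated by the test (log2FC 0.24, 95% interval −0.01 to 0.49). Their libraries did not overlap. All 10 genes together took 5.42% and 4.90% of counted pairs in control, 2.47% and 2.51% after 3 days, 1.97% and 2.01% after 6 days, and 3.34% and 2.87% in MetaICM. FN1 made up 67.2% and 66.2% of that sum in control and 49.8% to 58.0% in the other libraries.

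TNC (chr9:117781855-117880436, minus strand), which encodes tenascin C, a glycoprotein prominent in developing and healing tissue, moved much as FN1 did. Its level was 2707 and 2519 CPM in control, 1141 and 1201 CPM after 3 days, 620 and 663 CPM after 6 days, and 1470 and 1375 CPM in MetaICM. The 4 conditions did not overlap, and each step in their order passed an adjusted p of 0.05 in edgeR. The step between MetaICM and 3 days was only 0.29 on the log2 scale, under the minimum change. TNC fell 2.24-fold after 3 days (log2FC −1.16 ± 0.13, edgeR adjusted p = 4.25e-05) and 4.08-fold after 6 days (log2FC −2.03 ± 0.12, adjusted p = 6.9e-07). From 3 to 6 days it fell by a further 0.87 on the log2 scale (SE 0.09, edgeR adjusted p = 7.0e-07). In MetaICM it was 1.84-fold lower than in control and 2.22-fold higher than after 6 days.

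THBS1 and THBS2 encode thrombospondins, secreted glycoproteins that bind matrix proteins, proteases and cell surface receptors and restrain the growth of vessels. Per length, THBS1 was the second most abundant of the 10 genes in every condition (1028 RPKM on average in control, with 3923 RPKM for FN1), whereas THBS2 had 24.9 RPKM in control. THBS1 (chr15:39873280-39891667, plus strand) moved least of the 2, with 8912 and 7098 CPM in control, 6006 and 5751 CPM after 3 days, 4610 and 4655 CPM after 6 days, and 7071 and 6685 CPM in MetaICM. Its fall passed both cutoffs after 6 days (log2FC −0.79 ± 0.14, edgeR adjusted p = 0.0012). At 3 days its log2FC was −0.45 ± 0.15 (edgeR adjusted p = 0.043), under the minimum change. The adjusted p in edgeR was 0.069 with library totals and 0.055 with at least 10 counts in every library. The log2FC was −0.60 without replicate 2 of the control and −0.26 without replicate 1 of the control. In MetaICM the log2FC against control was −0.22 (95% interval −0.59 to 0.15). MetaICM lay above 6 days by 0.57 on the log2 scale, which passed the minimum change (0.61) only without replicate 2 of MetaICM.

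THBS2 (chr6:169615875-169654209, minus strand), whose TATAAA match is shown above, had 163 and 130 CPM in control, 48.1 and 43.8 CPM after 3 days, 37.2 and 27.6 CPM after 6 days, and 41.4 and 40.3 CPM in MetaICM. All 6 treated libraries lay below both control libraries. It fell 3.20-fold after 3 days (log2FC −1.68 ± 0.14), 4.54-fold after 6 days (−2.18 ± 0.16) and 3.60-fold in MetaICM (−1.85 ± 0.13, edgeR adjusted p = 3.2e-05). The difference between 6 and 3 days was −0.51 ± 0.13, under the minimum change. It exceeded that minimum (log2FC −0.73) only without replicate 1 of the 6 days, and it was −0.31 without replicate 2 of the 6 days. MetaICM and 3 days of ICM were not separated by the test (log2FC −0.17, 95% interval −0.37 to 0.04), though their libraries did not overlap. The ratio of THBS2 to THBS1 per length was 0.024 in both control libraries, 0.011 and 0.010 after 3 days, 0.011 and 0.0078 after 6 days, and 0.0078 and 0.0080 in MetaICM. The balance of the 2 genes was therefore lower in all treated libraries than in control.

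SPARC (chr5:151040657-151066476, minus strand) encodes osteonectin, a calcium- and collagen-binding protein, and was the third gene per length in every condition. Its level was 1161 and 1039 CPM in control, 700 and 633 CPM after 3 days, 956 and 977 CPM after 6 days, and 1327 and 1370 CPM in MetaICM. The fall at 3 days was 1.65-fold (log2FC −0.73 ± 0.13, edgeR adjusted p = 0.0016). At 6 days the log2FC was −0.19 (95% interval −0.45 to 0.06), and the difference between 6 and 3 days was 0.53 ± 0.09, which passed the minimum change (0.61) only without replicate 1 of the 3 days. In MetaICM SPARC was 2.03-fold higher than after 3 days (log2FC 1.02 ± 0.09, edgeR adjusted p = 3.9e-07), and its log2FC against control was 0.29 (adjusted p = 0.12). The counting did not use strand, and 51 exon bases of SPARC overlap the opposite-strand gene CLMAT3, while the other 9 genes share no exon base with another gene.

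POSTN (chr13:38136719-38172981, minus strand), the gene of periostin, a matricellular protein that binds collagen, fibronectin and integrins, differed from the others in that its lowest level was in MetaICM. It had 222 and 241 CPM in control, 88.4 and 98.1 CPM after 3 days, 40.4 and 35.7 CPM after 6 days, and 19.3 and 20.1 CPM in MetaICM. The conditions formed 4 separate steps, each of which passed both cutoffs. POSTN fell 2.49-fold after 3 days (log2FC −1.32 ± 0.13), 6.10-fold after 6 days (−2.61 ± 0.12) and 11.8-fold in MetaICM (−3.56 ± 0.12, edgeR adjusted p = 2.4e-07). From 3 to 6 days it fell by 1.29 on the log2 scale (SE 0.10, edgeR adjusted p = 4.7e-08). MetaICM was 1.93-fold lower than 6 days of ICM (log2FC −0.95 ± 0.09, edgeR adjusted p = 2.8e-08), in contrast to FN1, TNC and FBN2, which were higher there.

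ELN (chr7:73442119-73484236, plus strand) encodes tropoelastin, the soluble unit of elastin, and was the lowest of the 10 genes per length in every condition, at 1.54 ± 0.86 RPKM (SD, n = 2) in control. It had 144 and 45 counted pairs in control, 8 and 4 after 3 days, 5 and 7 after 6 days, and 17 and 15 in MetaICM, or 8.56 and 3.73, 0.37 and 0.27, 0.27 and 0.37, and 0.84 and 0.65 CPM. The control libraries differed 2.30-fold from each other, and all 6 treated libraries lay below both. ELN fell 18.7-fold after 3 days (log2FC −4.23 ± 0.49, edgeR adjusted p = 4.9e-05), 19.2-fold after 6 days (−4.26 ± 0.50) and 8.43-fold in MetaICM (−3.08 ± 0.42). Without replicate 1 of the control these falls were 11.1-fold, 11.3-fold and 4.93-fold, and they passed both cutoffs. It was not tested between 6 and 3 days, since its counts were below the filter. Against control at these 2 times, it passed that filter through the control libraries alone. With at least 10 counts required in every library it was left out there, and 8 and 7 of the 10 genes passed. ELN in MetaICM passed as higher than after 6 days (log2FC 1.20 ± 0.48, edgeR adjusted p = 0.043), on 5 to 17 pairs a library. The call did not hold with DESeq2 (adjusted p = 0.25) or with all genes with a count kept (adjusted p = 0.088 in edgeR). It also failed with all 8 libraries in one fit (adjusted p = 0.13 in edgeR). In fits of that kind with 1 of the 4 libraries left out, the log2FC was 0.98 to 1.45, which gives its size and does not restore the call.

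FBN1 and FBN2 encode fibrillins 1 and 2, the main units of microfibrils, of which fibrillin 2 is best known from fetal tissue. FBN1 (chr15:48700510-48937906, minus strand) had 3031 and 2834 CPM in control, 1817 and 1822 CPM after 3 days, 1702 and 1777 CPM after 6 days, and 2348 and 2012 CPM in MetaICM. It fell 1.62-fold after 3 days (log2FC −0.69 ± 0.13, edgeR adjusted p = 0.0021) and 1.69-fold after 6 days (−0.76 ± 0.12, adjusted p = 5.6e-04). Between these 2 times FBN1 did not pass the test (log2FC −0.07, 95% interval −0.25 to 0.11), though the libraries did not overlap. In MetaICM its log2FC against control was −0.43 (edgeR adjusted p = 0.048), under the minimum change.

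FBN2 (chr5:127593601-127873938, minus strand) had a different course. Its level was 1969 and 2169 CPM in control, 427 and 438 CPM after 3 days, 853 and 854 CPM after 6 days, and 2830 and 2601 CPM in MetaICM. The lowest point was therefore at 3 days, and the libraries of the 4 conditions did not overlap. FBN2 fell 4.80-fold after 3 days (log2FC −2.26 ± 0.14, edgeR adjusted p = 1.8e-07) and remained 2.43-fold lower than control after 6 days (−1.28 ± 0.12), having risen 1.97-fold between these times (log2FC 0.98 ± 0.09, adjusted p = 1.4e-07). In MetaICM it was 6.30-fold higher than after 3 days (log2FC 2.66 ± 0.09, edgeR adjusted p = 4.4e-11) and 3.18-fold higher than after 6 days. Against control the log2FC in MetaICM was 0.39 (95% interval 0.08 to 0.70, edgeR adjusted p = 0.060). The ratio of FBN2 to FBN1 per length was 0.69 and 0.81 in control, 0.25 and 0.26 after 3 days, 0.53 and 0.51 after 6 days, and 1.28 and 1.37 in MetaICM. MetaICM libraries thus held more FBN2 than FBN1 RNA per length, the reverse of the other 6 libraries.

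LOX (chr5:121398890-121413954, minus strand) encodes lysyl oxidase, which starts the crosslinks of elastin and collagen. It had 423 and 524 CPM in control, 235 and 251 CPM after 3 days, 598 and 653 CPM after 6 days, and 359 and 380 CPM in MetaICM. Of the 10 genes it alone had its highest level at 6 days. LOX fell 1.95-fold after 3 days (log2FC −0.97 ± 0.14, edgeR adjusted p = 2.4e-04) and rose 2.57-fold from 3 to 6 days (log2FC 1.36 ± 0.09, adjusted p = 3.5e-09). The log2FC of 6 days against control was 0.40 ± 0.13 (edgeR adjusted p = 0.032), below the minimum change. MetaICM was 1.69-fold lower than 6 days (log2FC −0.76 ± 0.08, edgeR adjusted p = 3.4e-08) and 1.53-fold higher than 3 days (log2FC 0.61 ± 0.08), a value at the edge of the minimum change. It stayed under that minimum with DESeq2 (0.595), in edgeR when TMM gave way to library totals (0.554), to upper-quartile scaling (0.587) or to the size factors of DESeq2 (0.595), without replicate 1 of the 3 days (0.564) and without replicate 2 of MetaICM (0.565). Per length, the ratio of LOX to LOXL2, a lysyl oxidase of the same family, was 0.33 and 0.47 in control, 0.20 and 0.21 after 3 days, 0.49 and 0.52 after 6 days, and 0.30 and 0.34 in MetaICM.

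**Figure D3:**
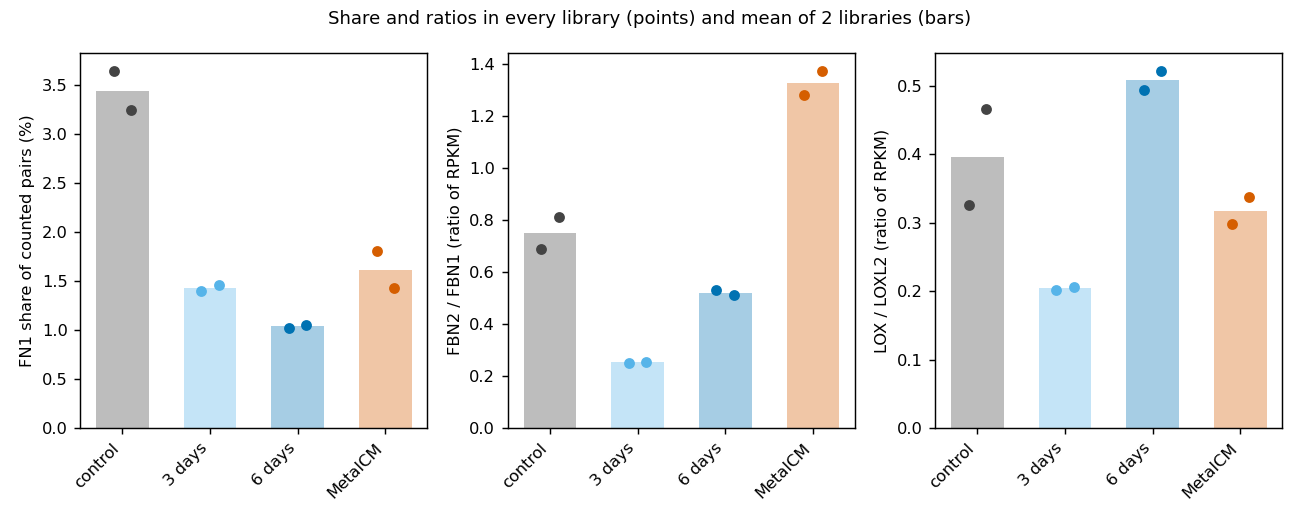
Share of FN1 in all counted pairs in percent (left), the ratio of FBN2 to FBN1 RPKM (middle) and the ratio of LOX to LOXL2 RPKM (right) in every library (points), with the mean of 2 libraries (bars). FN1 took over 3% of pairs only in control, the fibrillin ratio exceeded 1 only in MetaICM, and the LOX ratio was lowest at 3 days.

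Ranked by RPKM, FN1, THBS1 and SPARC led in this order in every condition, and ELN was last. The places between changed. TNC went from place 4 in control to place 7 after 6 days, LOX from place 7 to place 5, and FBN2 from place 6 in control to place 7 after 3 days and place 4 in MetaICM. POSTN and THBS2 held the places before ELN throughout, and they changed order in MetaICM (5.82 ± 0.17 RPKM for POSTN and 6.94 ± 0.13 RPKM for THBS2, SD, n = 2). Over the means of the 4 conditions, ELN had the widest range, 4.27 on the log2 scale, followed by POSTN with 3.56, FBN2 with 2.65 and THBS2 with 2.18. The range of ELN rests on 4 to 8 counted pairs a library at 3 and 6 days. FBN1 and THBS1 had the narrowest, 0.75 and 0.79.

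Other genes of the same matrix systems were taken from 4 lists, none of which holds any of the 10 genes. Of 20 partners of elastic fibres and microfibrils, 17 were tested against control after 3 and 6 days, and 12 were lower and none higher at each time, where 13.2% and 17.2% of all genes tested were lower. The median log2FC was −1.04 at both times, and that over all genes tested lay within 0.01 of 0 in each comparison with control. FBLN1 (fibulin 1, a binder of fibronectin and elastic fibres) fell by 3.85 on the log2 scale after 6 days, from 150 CPM in control to 10.5 CPM. VCAN (versican, a large proteoglycan that binds hyaluronan) fell by 3.47, from 904 to 81.8 CPM. BGN (biglycan, a small leucine-rich proteoglycan) fell by 3.25. MFAP2, a microfibril-associated glycoprotein at only 1.55 CPM in control, had a log2FC of −3.01. It counts among the 12 lower genes at 6 days, but at these levels it can have passed the filter only through control. In MetaICM, 3 of 17 were lower than in control (BGN, VCAN and MFAP4) and 1 was higher (EFEMP2), where 8.99% of all genes were lower and 7.41% higher. Compared with 6 days of ICM, 11 of 17 were higher in MetaICM and none lower, against 15.7% higher and 12.0% lower over all genes. FBLN1 was at 105 CPM in MetaICM. MFAP5, FBN3 and FBLN7 were not tested at 6 days.

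Of 9 members of the lysyl oxidase family and its activators, 6 were tested against control at both times, and 4 were lower after 3 days and 3 after 6 days, with none higher, beside 13.2% and 17.2% of all genes lower. PCOLCE, an enhancer of procollagen cleavage, fell by 2.49 on the log2 scale after 6 days, from 92.3 to 16.5 CPM, and LOXL1, the lysyl oxidase most tied to elastic fibres, fell by 1.17, from 40.8 to 18.2 CPM. BMP1, the protease that activates lysyl oxidase and trims procollagen, fell by 0.79. In MetaICM none of the 7 tested was lower than in control and 2 were higher (LOXL1 with 64.3 CPM on average, and LOXL3), where 7.41% of all genes were higher, and 4 of 7 were higher than after 6 days, where 15.7% of all genes were. LOXL1 and LOX thus differed in order, since LOX was lower in MetaICM than after 6 days and LOXL1 was higher (log2FC 1.82). TLL1, TLL2 and PCOLCE2 were not tested at 6 days.

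Of 20 other matricellular genes, 4 of 14 tested were lower and 1 higher after 3 days, and 5 of 15 were lower and none higher after 6 days, with median log2FC of −0.12 and 0.05. Over all genes, 13.2% were lower and 8.85% higher after 3 days, and 17.2% were lower and 13.3% higher after 6 days. CCN4, a secreted protein of the CCN family, fell by 2.50 on the log2 scale after 6 days, and SPOCK1 (testican 1, a proteoglycan related to SPARC) fell by 2.43. SMOC1 (another relative of SPARC) fell by 1.71 and CCN1 fell by 0.87. In MetaICM 4 of 15 were lower than in control (SPOCK1 with a log2FC of −2.61, SMOC1 with −2.51, TGFBI with −1.10 and CCN1 with −0.60) and 2 were higher (TNXB with 1.44 and SPON2 with 0.74), against 8.99% and 7.41% of all genes. CCN4 was 2.39 higher on the log2 scale in MetaICM than after 6 days. COMP, SMOC2, CCN5, TNN and TNR were not tested at 6 days.

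Of 14 fibronectin receptors, assembly factors and genes with fibronectin repeats, 13 were tested, and 2 were lower and 2 higher after 3 days, and 4 lower and 2 higher after 6 days, with medians of −0.17 and −0.05. Over all genes, 13.2% and 17.2% were lower and 8.85% and 13.3% higher at these times, near the shares of this list at 3 days. SDC4 (syndecan 4, a heparan sulfate proteoglycan that binds fibronectin) fell by 1.00 and ITGA5, which encodes the integrin chain of the classical fibronectin receptor, fell by 0.93 after 6 days. FLRT3 and FNDC3A, which carry fibronectin type III repeats, rose by 1.69 and 1.01. In MetaICM 3 were lower than in control (FLRT2, ITGB3 and TNS1) and 1 was higher, ITGA8, an integrin chain that binds fibronectin, with a log2FC of 3.35 (these 4 named after their values were seen), against 8.99% and 7.41% of all genes. ANOS1 was not tested at 6 days. Over the 4 lists together, 24 of 51 genes tested were lower and 2 higher after 6 days, with a median log2FC of −0.59, against 17.2% and 13.3% of all genes. In MetaICM 10 of 52 were lower and 6 higher, with a median of −0.17, against 8.99% and 7.41% of all genes.

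**Figure D4:**
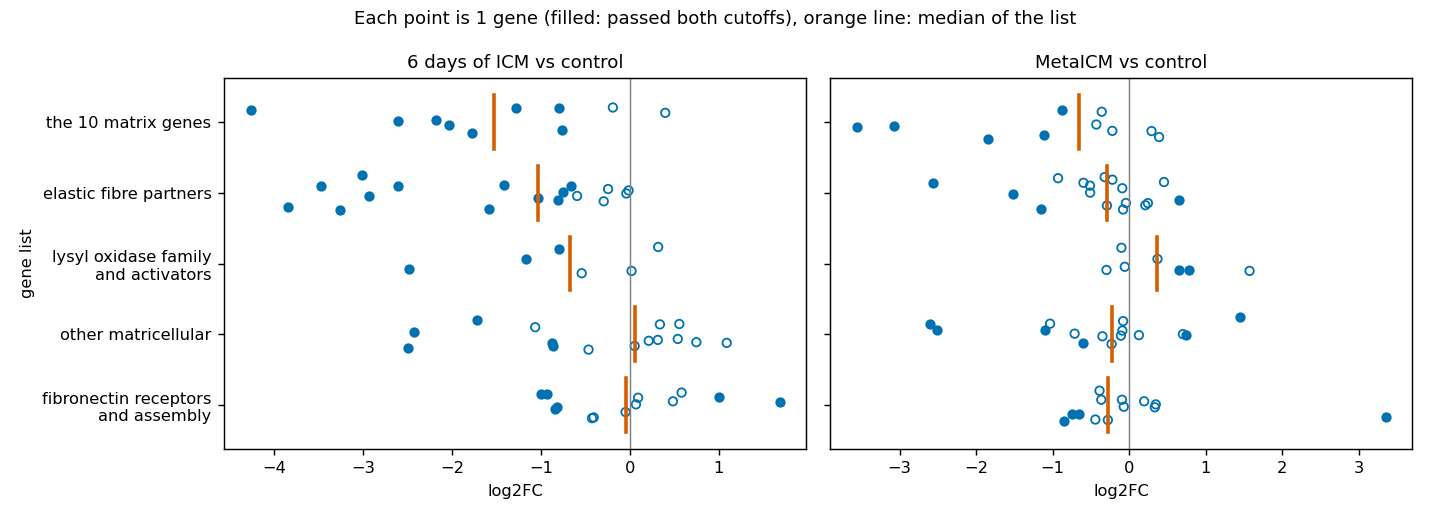
log2FC of the 10 matrix genes and of the genes of the 4 lists (rows) for 6 days of ICM against control (left) and MetaICM against control (right). Each point is 1 gene, filled where it passed both cutoffs (adjusted p under 0.05 in edgeR and absolute log2FC over 0.6), and the orange line is the median of the row, which lies at −1.53 for the 10 genes and −1.04 for elastic fibre partners on the left, and at −0.66 and −0.29 on the right.

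Genes with the most similar course over the 8 libraries were sought among 9281 genes with a mean of at least 10 CPM, by the root mean square difference of log2 CPM centred on each gene's mean. The 3 nearest to FN1 were SLC6A9 (a glycine transporter, 0.11), ADARB1 (an RNA editing enzyme, 0.17) and ALMS1 (a centrosome protein, 0.17). For ELN they were farther away, MYH11 (smooth muscle myosin heavy chain, 0.46), COL14A1 (a fibril-associated collagen, 0.63) and TNFAIP3 (0.64). MYH11, which is among the smooth muscle markers above, had 69.6 CPM in control, 8.34 after 3 days, 6.46 after 6 days and 13.0 CPM in MetaICM on average. The libraries share their depth and scaling with the genes compared, so these distances describe the pattern only.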

How the data were processed

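Read pairs were counted for 8 IMR90 libraries, 2 for each of 4 conditions. The authors aligned the pairs to hg19 (GRCh37) with STAR 2.6.0c and deposited raw counts of read pairs over the exons of each RefSeq gene, made with featureCounts 1.6.3, with both ends mapped, chimeric pairs left out, strand not used, and reads on several genes or places not counted. The counts per library ranged from 12095123 to 23166405. Intronic counts, on which the study based its nascent RNA analysis, were not analysed here.

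Conditions were compared 2 at a time (4 libraries) with edgeR 4.0.16 (R 4.3.3): TMM, filterByExpr at a count minimum of 10, quasi-likelihood test and Benjamini-Hochberg adjustment over all genes tested. CPM used TMM-scaled totals of the 8 libraries, and RPKM divided these by exon length. Alternatives were DESeq2 1.42.0, other scalings and filters, 1 fit of all libraries, a replicate block, an adjusted p of 0.01 and no minimum log2FC. Each library was also left out. The leave-out values came from 1 fit of all other libraries, not from the 4-library test, so they differ from the main values in model as well. The lone library was then assumed to vary like the others. The 10 genes, the lists and the rules were chosen with earlier results of these data known. From each list, at most the 4 changed genes with the largest absolute log2FC at 6 days were named, and other list genes were named after their values were seen. Promoters are from RefSeq (GRCh38.p14, the most upstream start of each gene).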

Additional observations from a re-analysis of the deposited data

Results flagged for a closer look

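Both ICM times were compared with the same control, and 4 genes had effects that differed between 3 and 6 days by a direct test of the 6-day against the 3-day libraries. TNC and POSTN were lower at 6 than at 3 days, with log2FC of −0.87 and −1.29, and FBN2 and LOX were higher, with log2FC of 0.98 and 1.36 (edgeR, adjusted over all genes tested). With 2 libraries a condition, no library could be set apart from the others of its condition by its values.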

How the results depend on the processing

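For the 59 tested values of the 10 genes, 714 values under alternatives were computed, of which 696 kept their direction and side of the cutoffs, 14 fell below the cutoffs, 4 passed them in addition and none changed sign. The 14 belong to ELN and FN1 in MetaICM against 6 days and to LOX in MetaICM against 3 days. Without a minimum log2FC, 8 in place of 4 genes passed between 6 and 3 days and 10 in place of 6 in MetaICM against 6 days. Leaving out 1 library at a time gave 9 to 10 genes called for 3 days against control, 8 for 6 days against control, 4 to 5 for 6 against 3 days, 5 for MetaICM against control, 4 to 6 for MetaICM against 6 days and 3 to 4 for MetaICM against 3 days.

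Same-numbered libraries correlated only weakly in their deviations from the means of their conditions, with r of −0.11 to 0.17. From 2 libraries a condition, this cannot decide whether the replicate numbers pair the libraries. With the replicate number as a block (replicate block), 9, 8, 4, 5, 6 and 4 genes passed in the 6 comparisons in the order above, the same counts as without it. With the numbers crossed between MetaICM and 3 days, an alternative chosen after seeing the data, 4 genes passed.

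The depth limits ELN alone of the 10 genes, with at most 17 counted pairs in a treated library.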

Other observations

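Among the 3 nearest genes in course over the 8 libraries, 2 other genes held a relative from the 4 lists, named after their values were seen. The gene nearest to SPARC was EFEMP1 (fibulin 3), with a difference of 0.079 and mean levels of 159 CPM in control, 99.8 after 3 days, 158 after 6 days and 219 CPM in MetaICM. The gene nearest to POSTN was SMOC1, at 0.50, with 40.4, 16.8, 12.4 and 7.09 CPM in the same order, and BGN was the third, at 0.68. For FBN2 the nearest gene was CLDN11 (claudin 11, a tight junction protein), at 0.12, with 200, 37.5, 71.6 and 242 CPM. For LOX, IGFBP3 (a binding protein of insulin-like growth factors) was the second, at 0.20, with 158, 70.0, 162 and 107 CPM. These are descriptions over 8 libraries among 9281 genes.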
